A study of Mus musculus with 4 samples.

Results

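The genes described here are 38 genes of DNA replication and of the passage from G1 into S phase, from the loading of the replicative helicase at origins to the supply of deoxynucleotides and histones. They were fixed as a list of symbols, and every probe set of the array that the platform annotation pairs with exactly 1 of those symbols was taken. That gave 84 probe sets for 37 genes, of 45037 probe sets and 18193 named genes in all. Chaf1a had no such probe set, so it has no expression value here and enters only the promoter search. The symbols were chosen with earlier results of these data known.

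The samples are cultured mesenchymal stem cells (MSC), plastic-adherent stromal cells, of C57BL/6 mice. There were 2 colonic MSC lines, isolated from flushed colon, and 2 bone marrow MSC lines, with 1 Affymetrix array per line. All 4 lines were dissociated with collagenase, selected by rapid adherence to plastic, grown in low-glucose medium with 10% serum, passaged at near confluence and lysed between passages 5 and 10, and no line carried a treatment or an engineered allele. The passage, density and animal of each single line are not given in the labels. Collagen gene Col1a2 was at 14901 to 15827 on all 4 arrays, but not all MSC markers were alike across the lines. Thy1 had 4516 and 9032 in colonic MSC and 32.8 and 22.0 in bone marrow MSC. Vcam1 had 2281 and 266 in colonic MSC and 2206 and 2535 in bone marrow MSC, and Nt5e was at 27.6 to 209. Col1a1, Pdgfrb, Cd44 and Itgb1 varied less. The pan-leukocyte gene Ptprc, the epithelial gene Epcam and the endothelial gene Pecam1 were at 28.6 or below, but other markers of the leukocyte and epithelial lists were well above that: Krt19, of a keratin, had 1890 and 105 in colonic MSC and 6223 and 5083 in bone marrow MSC, and Lyz2 and Cd53 reached 1589 and 1333 on single arrays. Across arrays the median intensity was 53.6 to 55.5, and the ratio of 3′ to 5′ control probe sets was 1.44 to 1.60 for Gapdh and 1.59 to 2.08 for Actb, with colonic replicate 1 the highest of the 4 for Gapdh and inside the range of the others for Actb.

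A cell enters S phase after D-type cyclins and then cyclin E with CDK2 inactivate the retinoblastoma family, which frees E2F factors to switch on a shared set of replication genes. The products load MCM helicases on origins in G1, fire those origins in S phase, and copy DNA with polymerases that are tethered by the sliding clamp PCNA. Since these transcripts peak around the start of S phase, their level in a culture is widely read as a sign of how many cells are cycling. In RNA of whole cultures, fewer cells in S phase and less RNA per cell cannot be told apart.

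The promoters are shown because E2F factors are known to act there. RefSeq promoters (GRCm38.p6, 250 bases before to 50 bases after the gene's start) were found for 32 of the 38 genes, 36 promoters in all. That of Chaf1a, which has no expression value here, is among the 36. They were searched on both strands for an E2F core of 7 letters, in its forms TTGGCGC or TTCGCGC or TTCCCGC or TTGCCGC, for the CCAAT box bound by NF-Y, and for the element TTTGAA, known as CHR from promoters of mitotic genes. Matches may overlap each other. An E2F core was present in 63.9% of these promoters, against 9.57% of all 32851 promoters of the same length, and CCAAT in 55.6% against 37.4%. TTTGAA was present in 8.33% against 17.9%. Promoters of 21 mitosis genes carried another pattern, with an E2F core in 18.2%, CCAAT in 90.9% and TTTGAA in 72.7% of 22 promoters. The E2F core contains CG, and the median GC content was 58.5% in the promoters of the replication genes and 52.7% in all promoters. A match is a description of the letters and not a shown binding site.

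The promoters of 3 genes are printed, that of Ccne1 because it is the gene with the lowest p below, and those of Mcm6 and Pola1 because they held the most E2F cores. The choice of Mcm6 and Pola1 was made after the values were seen. Capitals mark E2F cores and CCAAT boxes on either strand. Ccne1 is at chr7:38107441-38107740, Mcm6 at chr1:128359656-128359955 and Pola1 at chrX:93632106-93632405, all on the minus strand.
Ccne1: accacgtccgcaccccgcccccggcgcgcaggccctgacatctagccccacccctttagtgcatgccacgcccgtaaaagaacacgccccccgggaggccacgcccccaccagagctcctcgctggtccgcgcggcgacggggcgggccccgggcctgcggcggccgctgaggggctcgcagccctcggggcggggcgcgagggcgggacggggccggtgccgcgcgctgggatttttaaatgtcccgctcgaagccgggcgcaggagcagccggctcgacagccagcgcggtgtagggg
Mcm6: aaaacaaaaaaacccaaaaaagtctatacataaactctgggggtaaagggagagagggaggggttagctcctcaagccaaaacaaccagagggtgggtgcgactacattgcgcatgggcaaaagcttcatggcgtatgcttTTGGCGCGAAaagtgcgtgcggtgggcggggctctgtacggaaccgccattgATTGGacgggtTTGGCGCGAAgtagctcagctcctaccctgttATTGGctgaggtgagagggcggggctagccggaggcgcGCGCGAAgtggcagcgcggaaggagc
Pola1: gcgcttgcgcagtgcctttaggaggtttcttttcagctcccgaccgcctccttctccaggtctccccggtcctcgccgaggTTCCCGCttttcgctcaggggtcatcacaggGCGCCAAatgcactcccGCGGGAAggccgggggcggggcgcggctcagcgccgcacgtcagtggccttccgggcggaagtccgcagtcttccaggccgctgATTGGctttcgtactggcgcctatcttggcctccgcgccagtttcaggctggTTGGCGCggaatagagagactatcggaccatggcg
In the Mcm6 promoter 5 E2F cores were found, 4 of them in overlapping pairs that begin 109 and 46 bases before the start, and CCAAT boxes on the opposite strand begin 57 and 14 bases before it. Pola1 had 4 E2F cores and 1 CCAAT box. Neither motif, as spelled here, is in the window printed for Ccne1.

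The tissue comparison asks whether colonic and bone marrow MSC grown alike differ in these genes. None of the 37 differences passed the test over all genes. A total of 29 of 37 genes had a log2 difference (colonic minus bone marrow) below 0 and 8 above it, with a median of -0.19, against a median of 0.01 and 48.5% below 0 over the 12920 genes tested. Ccne1, the gene of cyclin E1, had the highest log2 difference of the members, 1.31. Its level was higher in both colonic lines than in either bone marrow line, as in 18.4% of all genes. The 2 colonic lines lay at opposite ends for most members, colonic replicate 1 the lowest of the 4 arrays and colonic replicate 2 the highest, with both bone marrow lines in between.

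All 37 genes had at least 1 probe set above the filter on low values, and the brightest stood for its gene. With limma's moderated test on log2(intensity + 13.6), adjusted by Benjamini and Hochberg over 12920 genes, 0 of the 37 passed an adjusted p of 0.05, as did 0% of all genes. At an unadjusted p below 0.05 lay 1 of the 37, Ccne1, against 6.00% of all genes. At that unadjusted threshold Ccne1 was higher in colonic MSC, as were 3.30% of all genes, and 0 members were lower, against 2.70%. The colonic and bone marrow arrays did not overlap in 3 genes, all higher in colonic MSC, against 18.4% of all genes in that direction, and in 0 genes lower in colonic MSC, against 15.1%. The 3 were Ccne1, Ccne2 and Tyms. Tyms no longer counted under quantile normalization, median centring, the 60th percentile filter or the mean of probe sets, which left 2. With 2 arrays in each tissue the smallest two-sided p that exact permutation allows is 0.333, so none is given for single genes.

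**Figure D1:**
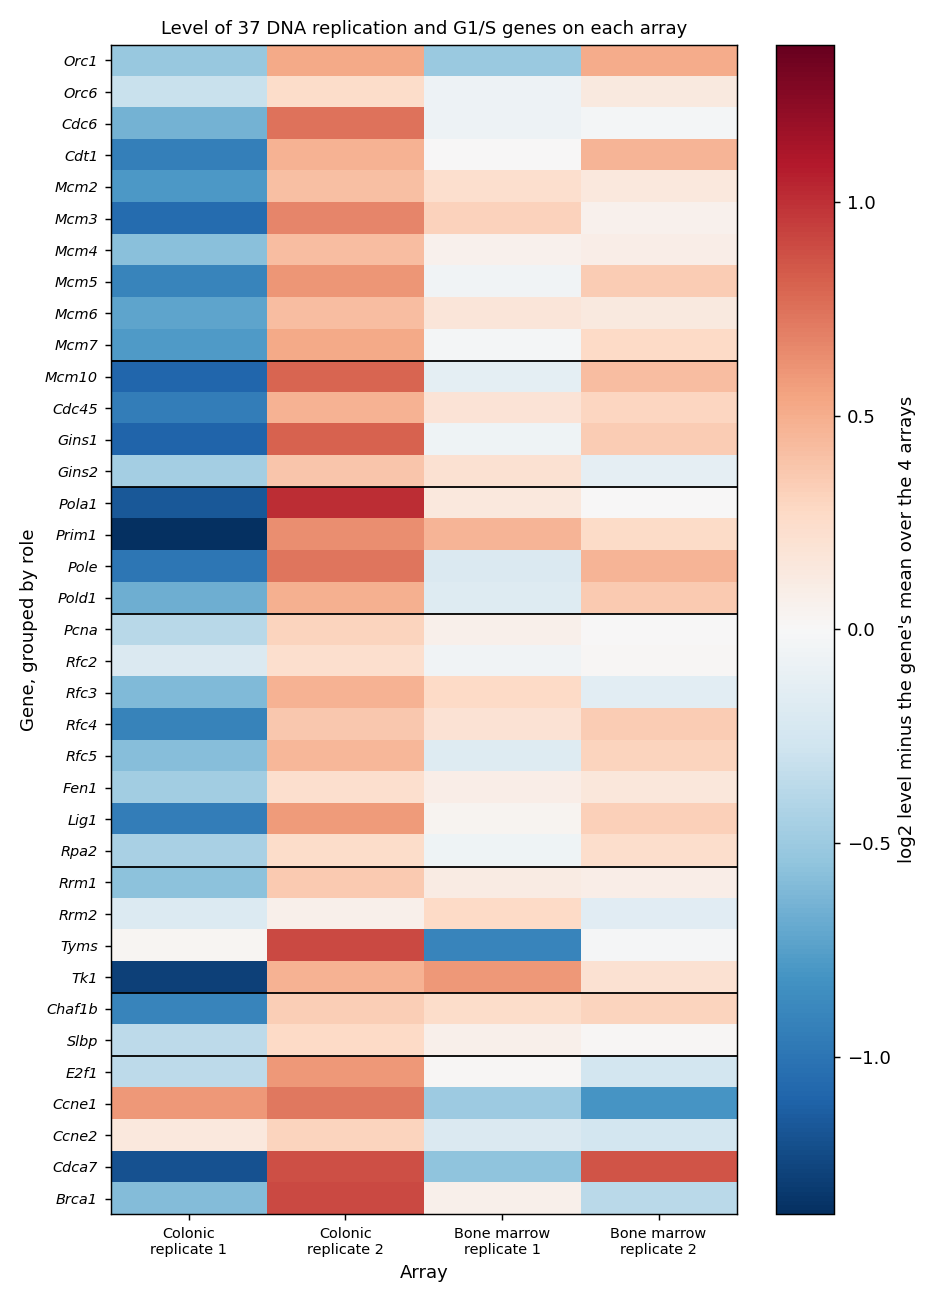
Level of the 37 measured genes (rows, grouped by role with black lines between groups) on the 4 arrays (columns), as the log2 level minus the gene's mean over the 4 arrays. Colonic replicate 1 is the lowest array in 34 genes and colonic replicate 2 the highest in 35, while Ccne1 and Ccne2 are above their mean in both colonic lines.

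Origin licensing places the double hexamer of MCM2-7 on DNA with the help of the origin recognition complex (ORC), CDC6 and CDT1. The 6 subunit genes Mcm2 to Mcm7 had the same lowest and highest array. Intensities of Mcm2 were 2189 and 5037 in colonic MSC (replicates 1 and 2, in that order here and below), against 4436 and 4178 in bone marrow MSC. For Mcm6 they were 2610 and 5757 in colonic MSC, against 4828 and 4710 in bone marrow MSC. Mcm7 had 2848 and 7001 in colonic MSC, against 4793 and 5914 in bone marrow MSC. In each of these genes colonic replicate 1 was the low array and colonic replicate 2 the high one, and the bone marrow pair lay between them. Mcm3 had 1077 and 3583 in colonic MSC, against 2794 and 2345 in bone marrow MSC. Mcm5 stood at 1606 and 4600 in colonic MSC, against 2926 and 3839 in bone marrow MSC. Mcm4 was at 2842 and 5675 in colonic MSC, against 4425 and 4521 in bone marrow MSC. By the brightest probe set all 6 subunit genes were thus lowest in colonic replicate 1 and highest in colonic replicate 2. The order of the bone marrow arrays varied, and log2 differences between tissues were -0.15 to -0.38, with a median of -0.30. Another probe set above the filter for each of Mcm3, Mcm4 and Mcm6 was highest in bone marrow replicate 2 instead. The tissue difference of Mcm2 was -0.37 ± 0.43 and that of Mcm7 -0.25 ± 0.46 (SE). The difference of Mcm6 was -0.30 ± 0.40 (SE), with a 95% interval of -1.36 to 0.77 that holds more than a 2-fold fall as well as a rise.

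The loading factors varied in the same manner. Cdt1, which recruits MCM to ORC, was at 1518 and 4051 in colonic MSC and at 2922 and 4030 in bone marrow MSC, a log2 difference of -0.47 ± 0.52 (SE). Cdc6, the loading ATPase, was at 448 and 1202 in colonic MSC, against 674 and 699 in bone marrow MSC. Orc1, the ORC subunit that cycles, differed 2-fold inside each tissue, with 243 and 514 in colonic MSC and 244 and 510 in bone marrow MSC, and its tissue means were level (log2 difference 0.00 ± 0.58, SE). Orc6 was the flattest of the licensing genes, at 1831 and 2686 in colonic MSC and 2149 and 2473 in bone marrow MSC.

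Helicase activation adds CDC45 and the GINS complex to MCM2-7, with MCM10 needed to start unwinding. Cdc45 had 532 and 1446 in colonic MSC, against 1186 and 1274 in bone marrow MSC (log2 difference -0.48 ± 0.54, SE). Its dimmer probe set above the filter had 57 and 97 in colonic MSC and 71 and 126 in bone marrow MSC. That probe set was highest in bone marrow replicate 2. Gins1 was at 440 and 1683 in colonic MSC and at 916 and 1218 in bone marrow MSC. Mcm10 was at 354 and 1331 in colonic MSC and at 693 and 1028 in bone marrow MSC. These 3 genes were 2.71- to 3.83-fold higher in colonic replicate 2 than in colonic replicate 1, while the bone marrow lines differed by 1.07- to 1.48-fold. Gins2, another GINS subunit, moved less, at 1583 and 2868 in colonic MSC against 2537 and 2013 in bone marrow MSC (log2 difference -0.08 ± 0.36, SE).

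Polymerase and primase genes also had colonic replicate 1 lowest and colonic replicate 2 highest, with the colonic lines at least 2-fold apart in all 4 genes. Pola1, the catalytic subunit of the polymerase that extends primers, was at 547 and 2515 in colonic MSC, against 1377 and 1248 in bone marrow MSC. Prim1, the primase that makes those primers, was at 1026 and 4162 in colonic MSC, against 3686 and 3216 in bone marrow MSC. The colonic lines were 4.60-fold apart for Pola1 and 4.06-fold for Prim1, and both bone marrow lines lay between them. The leading-strand polymerase gene Pole was at 469 and 1577 in colonic MSC and 821 and 1307 in bone marrow MSC. Pold1, of the lagging-strand polymerase, was at 813 and 1831 in colonic MSC and 1148 and 1677 in bone marrow MSC. Between tissues Prim1 differed by -0.73 ± 0.69 (SE) and Pola1 by -0.15 ± 0.77 (SE) on the log2 scale, and in both the gap between the colonic lines was wider.

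All 8 clamp and lagging-strand genes were lowest in colonic replicate 1 and highest in colonic replicate 2. Pcna, the sliding clamp, was at 7681 and 12402 in colonic MSC, against 10502 and 10073 in bone marrow MSC. Fen1, the nuclease that trims Okazaki fragments, was at 3440 and 5639 in colonic MSC, against 5114 and 5356 in bone marrow MSC. Lig1, the ligase that seals them, was at 1442 and 4188 in colonic MSC, against 2872 and 3508 in bone marrow MSC. Of these 3 genes Lig1 had the widest range over the 4 arrays. The clamp loader subunits differed from each other: Rfc4 had 837 and 2062 in colonic MSC, against 1830 and 2023 in bone marrow MSC. Rfc2 had only 1801 and 2434 in colonic MSC, against 1994 and 2095 in bone marrow MSC. Rfc3 had 388 and 834 in colonic MSC, against 721 and 539 in bone marrow MSC. By the brightest probe set all 3 were lowest in colonic replicate 1 and highest in colonic replicate 2. For Rfc4, however, colonic replicate 2 and both bone marrow arrays lay close together. Its second probe set above the filter had 621 and 1599 in colonic MSC, against 1337 and 1646 in bone marrow MSC. That probe set was thus highest in bone marrow replicate 2. Rfc5 was at 1316 and 2729 in colonic MSC and 1756 and 2452 in bone marrow MSC. Rpa2, of the complex that coats single-stranded DNA, was at 1004 and 1633 in colonic MSC and 1312 and 1623 in bone marrow MSC. The log2 difference between tissues was -0.08 ± 0.24 for Pcna, -0.25 ± 0.27 for Fen1 and -0.54 ± 0.49 for Rfc4 (SE).

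Among the 4 genes of deoxynucleotide supply, 3 were lowest in colonic replicate 1 and 2 were highest in colonic replicate 2. Tk1, the thymidine kinase of S phase, was at 851 and 2913 in colonic MSC, against 3155 and 2420 in bone marrow MSC, and its log2 difference of -0.80 ± 0.63 (SE) was the lowest of the 37. Rrm2, the ribonucleotide reductase subunit made in S phase, was at 7795 and 9328 in colonic MSC, against 10695 and 7968 in bone marrow MSC. In Tk1 and Rrm2 bone marrow replicate 1 was the highest array, which held for no other member. Rrm1, the larger reductase subunit, was at 3584 and 6821 in colonic MSC, against 5726 and 5635 in bone marrow MSC. The log2 difference between tissues was -0.11 ± 0.19 for Rrm2 and -0.20 ± 0.33 for Rrm1 (SE). Tyms, the thymidylate synthase gene, was dim, with 89.4 and 176 in colonic MSC and 40.5 and 86.8 in bone marrow MSC. Its arrays did not overlap in that probe set, but the other Tyms probe set above the filter had 23.1 and 141 in colonic MSC and 99.7 and 79.6 in bone marrow MSC. The log2 differences of these probe sets were 0.92 (± 0.49, SE) and -0.45, so the 2 disagree in sign and no direction is given for Tyms.

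Histone supply and chromatin assembly were represented by Chaf1b and Slbp. Chaf1b, a subunit of the assembly factor CAF-1, was at 258 and 630 in colonic MSC, against 593 and 617 in bone marrow MSC. Slbp, which binds the stem-loop of histone mRNAs, was at 2761 and 4301 in colonic MSC, against 3727 and 3603 in bone marrow MSC. Chaf1b was low in colonic replicate 1 alone, with a log2 difference of -0.56 ± 0.52 (SE). Slbp had the same lowest and highest arrays and a smaller range, with a log2 difference of -0.09 ± 0.26 (SE).

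The cyclin E genes had both colonic arrays above both bone marrow arrays, unlike most members but as in 18.4% of all genes. Ccne1 was at 2010 and 2192 in colonic MSC, against 935 and 752 in bone marrow MSC, that is 2101 ± 129 against 843 ± 130 (SD, n = 2 each). Both colonic arrays were above both bone marrow arrays, the colonic lines were 1.09-fold apart, and the log2 difference was 1.31 ± 0.27 (SE), with a 95% interval of 0.60 to 2.02. By limma its unadjusted p was 0.0058 and its adjusted p over all genes 0.399, with a range of 0.366 to 1.00 over the alternatives, the highest of them without bone marrow replicate 2. The second Ccne1 probe set had 1162 and 1350 in colonic MSC and 613 and 438 in bone marrow MSC, a log2 difference of 1.25. Ccne2, of cyclin E2, was at 1103 and 1238 in colonic MSC, against 870 and 836 in bone marrow MSC, without overlap and with a log2 difference of 0.45 ± 0.27 (SE). The test did not pass for Ccne2 either (limma, adjusted p = 0.974). The cyclin E genes thus had the smallest gaps between colonic lines of the 37, 1.09-fold for Ccne1 and 1.12-fold for Ccne2, which was not tested against the other members.

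E2f1, the E2F activator, was at 527 and 1030 in colonic MSC, against 684 and 565 in bone marrow MSC. Brca1, a repair gene that E2F also drives, was at 559 and 1601 in colonic MSC and 894 and 658 in bone marrow MSC. In both of these colonic replicate 2 was well above the other arrays, which lay closer together. Cdca7, a chromatin factor gene bound by MYC and E2F, split both tissues, with 225 and 984 in colonic MSC and 356 and 975 in bone marrow MSC.

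**Figure D2:**
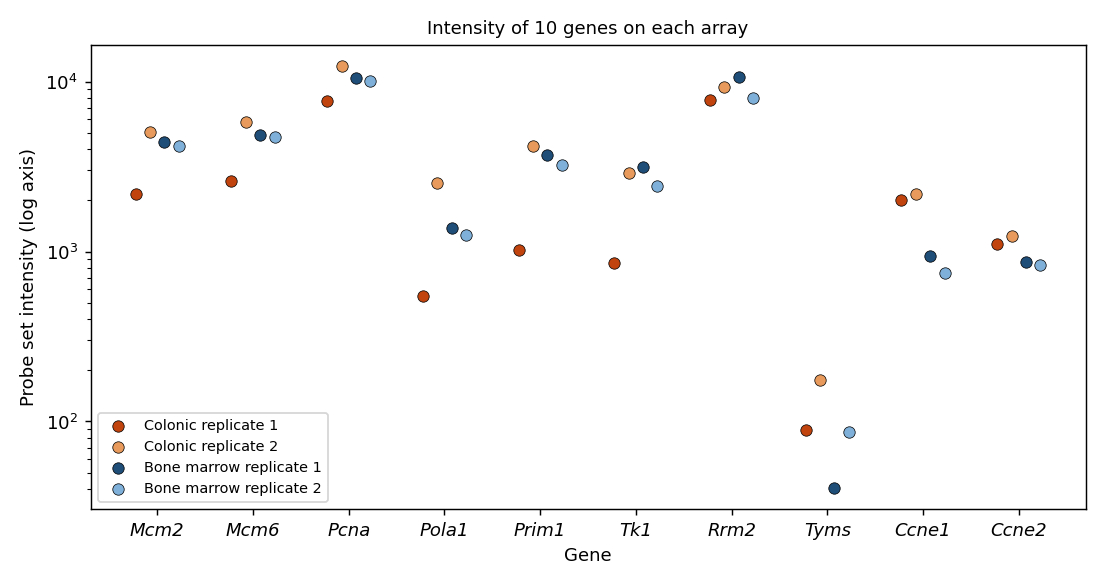
Probe set intensity (log axis) of 10 of the genes on each of the 4 arrays, 1 point per array. For Mcm2, Mcm6, Pola1, Prim1 and Tk1 colonic replicate 1 lies apart below the other arrays, and for Ccne1 both colonic points lie above both bone marrow points.

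**Figure D3:**
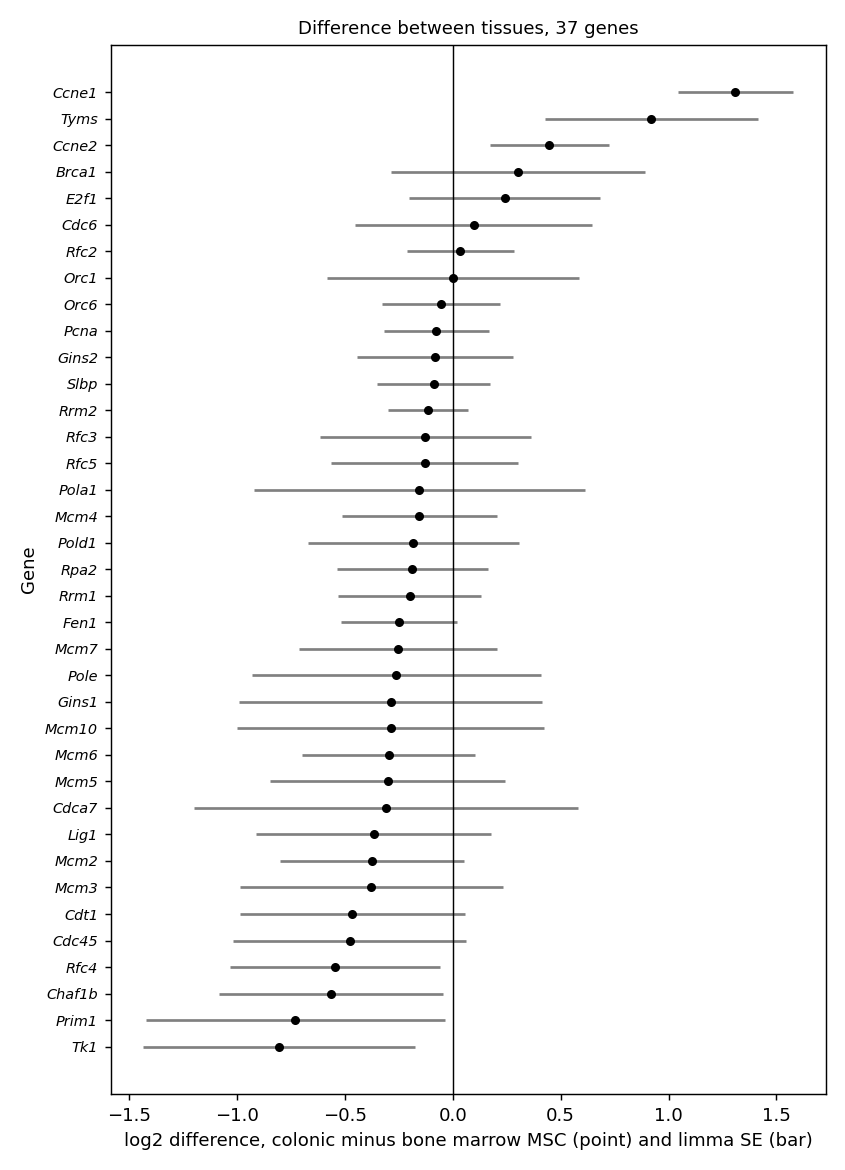
Log2 difference between colonic and bone marrow MSC for each of the 37 genes (points) with the standard error of limma (bars), ordered by the difference. Differences run from -0.80 for Tk1 to 1.31 for Ccne1, and 29 points lie below 0.

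The gap between the colonic lines can be counted directly. Colonic replicate 2 exceeded colonic replicate 1 in 37 of 37 genes, against 49.8% of all genes tested, and by at least 2-fold on the log2(intensity + 13.6) scale in 23, against 6.23%. Its median was 1.16 on the log2 scale over the members and 0.00 over all genes. The bone marrow lines were at least 2-fold apart in 2 members, Orc1 and Cdca7, against 11.0% of all genes, and their median difference (replicate 2 minus replicate 1) was 0.06. In 34 members the colonic lines were further apart than the tissues, against 62.0% of all genes. These counts compare single arrays, so they describe these lines and have no replicate check.

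In 32 of the 37 genes both bone marrow arrays lay between colonic replicate 1 as the lowest and colonic replicate 2 as the highest, against 8.75% of all genes. The 5 exceptions were Rrm2, Tk1, Tyms, Ccne1 and Ccne2. Colonic replicate 1 was the lowest array in 34 members, against 28.8% of all genes, and colonic replicate 2 the highest in 35, against 22.0%. Of the 72 probe sets above the filter 65 were lowest in colonic replicate 1 and 62 were highest in colonic replicate 2. In 71 of them colonic replicate 2 was higher than colonic replicate 1. Probe sets of 1 gene share their target and are not independent. For 5 of the 25 genes with several probe sets above the filter, namely Cdca7, Gins2, Pold1, Rfc2 and Tyms, the sign of the tissue difference was not the same in all of them.

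**Figure D4:**
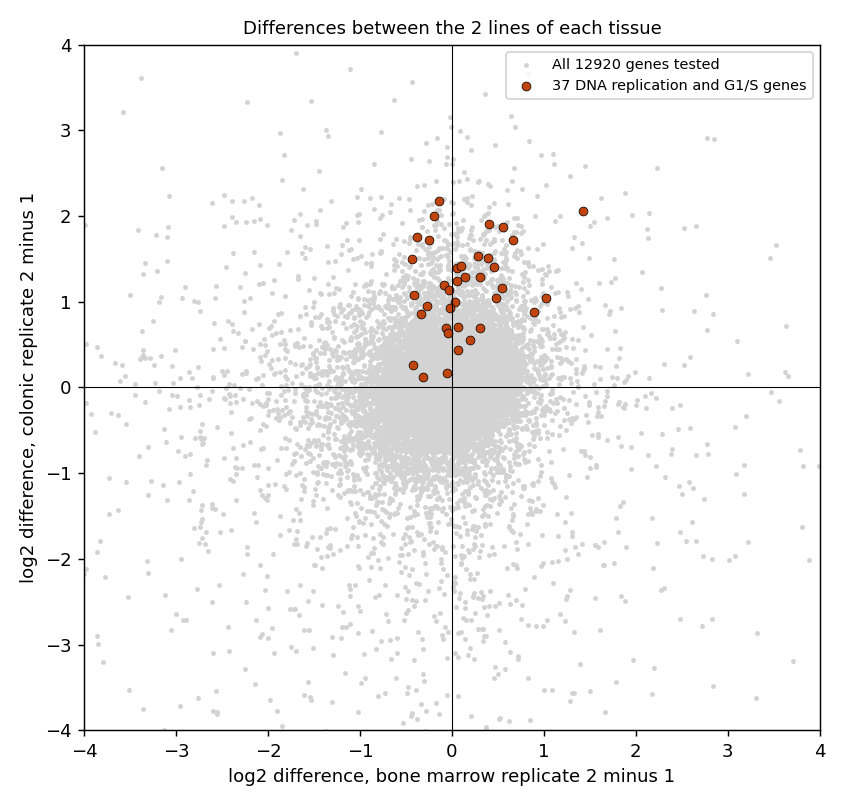
Log2 difference between the lines of a tissue for each gene, colonic replicate 2 minus 1 (vertical) against bone marrow replicate 2 minus 1 (horizontal), with the 37 genes in red and all 12920 genes tested in grey. All 37 red points lie above 0 on the vertical axis, up to 2.17, and 135 grey genes fall outside the axes drawn.

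The size of the gap ran from 0.12 for Ccne1 to 2.17 for Pola1 on the log2 scale. By role its median was 1.86 for polymerases and primase, 1.64 for helicase activation, 1.25 for origin licensing, 0.95 for G1/S regulators and other E2F targets, 0.94 for histone supply, 0.90 for deoxynucleotide supply and 0.88 for the clamp and lagging-strand group. The groups overlap widely and hold 2 to 10 genes each, so no order among them is drawn. In the 20 measured members whose promoter held an E2F core the median gap was 1.29, with a range of 0.26 to 2.17, and in the 11 without one it was 0.95, with a range of 0.12 to 1.87. The ranges overlap, and the split was made after the values were seen and was not tested.

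Genes of the same pathway outside the list behaved in part alike. Of 44 other replication genes measured, 34 had a log2 difference below 0 (median -0.20), against 48.5% of all genes. Limma's test over all genes was passed by 0 of the 44, as by 0% of all genes. Against 6.00% of all genes, 0 of the 44 had an unadjusted p below 0.05 by limma. Those with the lowest p were Gmnn, the CDT1 inhibitor geminin, at 1362 and 2478 in colonic MSC against 2668 and 3473 in bone marrow MSC, and the helicase gene Recql4, at 146 and 398 against 416 and 661. Next came Mcm9, at 171 and 494 in colonic MSC against 508 and 703 in bone marrow MSC, and Orc4, at 2487 and 2567 in colonic MSC against 1900 and 2117 in bone marrow MSC. Colonic replicate 1 was the lowest array in 35 of the 44 genes, against 28.8% of all genes. Colonic replicate 2 was higher than colonic replicate 1 in 39 of the 44, against 49.8% of all genes. The median gap of the 44 was 0.91.

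Genes of mitosis had the same lowest array. All 24 measured ones were lowest in colonic replicate 1, against 28.8% of all genes, with a median gap of 1.76 between the colonic lines. By limma 0 passed the test over all genes, as did 0% of all genes, and 0 had an unadjusted p below 0.05, against 6.00%. The lowest p belonged to Cdc20, an activator of the anaphase-promoting complex, at 2638 and 6435 in colonic MSC against 6902 and 6674 in bone marrow MSC. The spindle motor gene Kif11 was at 463 and 2102 in colonic MSC, against 1970 and 2714 in bone marrow MSC. Nusap1, of a spindle microtubule protein, was at 819 and 2858 in colonic MSC, against 2757 and 2795 in bone marrow MSC. In these genes colonic replicate 1 alone was low and the other arrays lay near each other. Birc5, the gene of survivin, was at 2448 and 4606 in colonic MSC, against 4718 and 4495 in bone marrow MSC. Mki67, the proliferation marker Ki-67, was at 1657 and 6348 in colonic MSC, against 3494 and 5309 in bone marrow MSC. The median tissue difference of the mitosis genes was -0.61, and all 24 were below 0, against 48.5% of all genes.

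**Figure D5:**
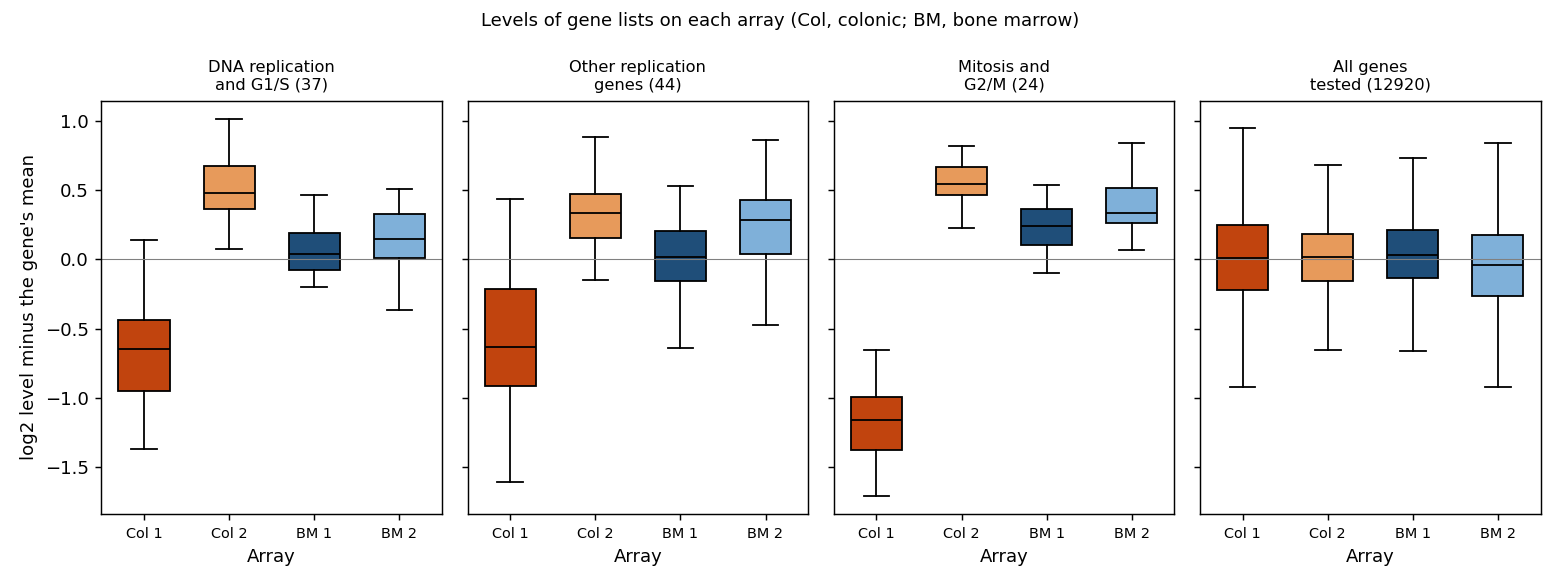
Box plots, per array, of the log2 level minus the gene's mean over the 4 arrays, for the 37 genes, 44 other replication genes, 24 mitosis and G2/M genes and all 12920 genes tested. Boxes span the quartiles with the median as a line, whiskers reach the furthest value within 1.5 box lengths, and points beyond are not drawn. The median of the 37 genes is -0.65 in colonic replicate 1 and 0.48 in colonic replicate 2, against 0.04 and 0.14 in the bone marrow arrays, and all genes have medians near 0.

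Cdkn1a, the gene of the CDK inhibitor p21, had an intensity of 20264 in colonic replicate 1, the highest value of any probe set on that array, and 5824 in colonic replicate 2, against 6378 and 436 in bone marrow MSC. Cdkn1a was thus highest in colonic replicate 1 and lowest in bone marrow replicate 2. The other CDK inhibitor genes did not share that order. Cdkn1b, at 792 and 1906 in colonic MSC and 1569 and 1532 in bone marrow MSC, was lowest in colonic replicate 1, as were Cdkn2c and Cdkn2d. Cdkn2a, at 1249 and 585 against 782 and 999, was highest there. For Cdkn1c and Cdkn2b colonic replicate 1 was neither. A link between Cdkn1a and the replication transcripts was not tested. Smooth muscle markers had a summed intensity of 55944 and 49188 over 6 genes in colonic MSC and 44860 and 30028 in bone marrow MSC. Desmin gene Des was at 2379 and 47.9 in colonic MSC, against 52.4 and 25.1 in bone marrow MSC. Epithelial markers summed over 10 genes to 3070 and 281 in colonic MSC and 6541 and 5420 in bone marrow MSC. Krt20 was at 889 and 29.1 in colonic MSC, against 29.4 and 15.9 in bone marrow MSC. Macrophage markers summed over 12 genes to 1960 and 3019 in colonic MSC and 2958 and 1214 in bone marrow MSC, with 8 of the 12 above the filter. Cd53, a leukocyte tetraspanin gene, was at 155 and 1333 in colonic MSC, against 14.0 and 15.7 in bone marrow MSC, and Lyz2, of lysozyme, at 150 and 590 in colonic MSC, against 1589 and 31.7 in bone marrow MSC. Cd14 was at 573 to 963 on the 4 arrays, while Tyrobp and Aif1 were at 5.69 or below. Lymphoid and erythroid markers summed over 4 genes to 200 and 210 in colonic MSC and 163 and 200 in bone marrow MSC, and endothelial markers over 6 genes to 246 and 186 in colonic MSC and 169 and 110 in bone marrow MSC. MSC markers summed over 9 genes to 52717 and 55036 in colonic MSC and 48574 and 42523 in bone marrow MSC. The part of these values in the gap between the colonic lines was not tested.

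Leaving out colonic replicate 1 turned the direction of the group. Without it 0 of 37 members were below 0, against 46.9% of all genes, and their median difference was 0.39. Without colonic replicate 2, 34 members were below 0, against 48.1% of all genes, with a median of -0.67. In neither case, nor without either bone marrow array, did any member pass an adjusted p of 0.05 by limma. At an unadjusted p below 0.05 lay 17 of 37 members without colonic replicate 2, where 10.6% of all genes did, and 1 with all arrays. The sign of the median difference thus changed with the colonic line left out.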

How the data were processed

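The authors deposited 1 table of probe set intensities for 4 arrays. Per the labels' protocols, total RNA was amplified, labelled with biotin and hybridised. The unit was judged from the values, and for summarisation, background correction and scaling the method is not stated in the sources used here. Array medians were 53.6 to 55.5, so the deposited scaling was kept.

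Analyses used log2(intensity + 13.6), with 0.25 of the table's median as pseudocount, so a log2 difference understates the ratio of dim genes. Of the probe sets, 64 controls were left out and 34945 had 1 symbol. Those with a mean above the 40th percentile passed (about 31.9), the brightest stood for its gene, and 12920 genes were tested. limma 3.58.1 in R 4.3.3 (lmFit, eBayes with trend) compared colonic minus bone marrow MSC over all 4 arrays with tissue as the only term, with Benjamini-Hochberg adjustment and a threshold of 0.05, and standard errors and intervals are its own. The fit had 2 residual degrees of freedom. A run on simulated data checked only its slope and sign, with planted differences larger than that of any member.

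The members and lists were chosen with earlier results of these data known. Described with all 4 intensities were the 12 members with the lowest p and the 2 brightest of each role, and the other members were added. Of each other list the 4 with the lowest p were to be named, and Mki67 was added. The printing of Mcm6 and Pola1 promoters was added later. Alternatives were quantile normalization, median centring, other pseudocounts, filters and probe set rules, no trend, robust eBayes, the replicate number as a block and each array left out. Arrays of a tissue are labelled biological replicates, but whether lines share an animal is not stated. The p-values thus set the tissue difference against the spread between these lines, which limma moderates with that of other genes. The number of arrays limits the precision.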

Additional observations from a re-analysis of the deposited data

How the results depend on the processing

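Of the 37 members 0 passed an adjusted p of 0.05 by limma under every alternative run, and the same held for the 44 other replication genes. With all arrays kept, 1 member lay at an unadjusted p below 0.05 by limma in most alternatives. Under the block 2 did, against 7.48% of all genes, and 2 of 72 probe sets did, against 5.79% of all probe sets. Apart from leaving out arrays, the median difference of the members stayed between -0.22 and -0.17, and 208 of 208 values of the 19 genes described in full kept their direction, Tyms by its brighter probe set or the mean. Over all genes 0 passed the test, but 12 to 17 did under quantile normalization, median centring, a pseudocount of 1, the 60th percentile filter, the mean of probe sets, no trend or robust eBayes, 34 without colonic replicate 1 and 20 without colonic replicate 2. The cause was not tested. With each of 72 probe sets counted by itself, 5 did not overlap and were higher in colonic MSC, against 18.4% of all 23138 probe sets. Lower without overlap was 1, against 15.3%. Of the 72, 71 were higher in colonic replicate 2 than 1 and 65 were lowest in colonic replicate 1. These counts exceed those of genes since more features are counted. With 1 array left out, the spread comes from the tissue that still has both arrays and is taken to hold for the single one. The median difference then ran from -0.67 to 0.39, the genes without overlap and higher in colonic MSC numbered 3 to 35, and those lower 0 to 34. The 35 stand against 33.2% of all genes without colonic replicate 1, and the 34 against 34.8% without colonic replicate 2. With 1 colonic array left, no overlap means only that this array lies beyond both bone marrow arrays. The 35 and 34 thus repeat the order of arrays counted above and are not a separate result. Of 76 log2 differences of single genes with 1 array left out, 18 turned sign. The log2 difference without colonic replicate 2 and without colonic replicate 1 was Cdt1 -1.17 and 0.24, Mcm2 -0.97 and 0.23, Mcm6 -0.87 and 0.27, Mcm7 -0.90 and 0.39, Cdc45 -1.19 and 0.23, Gins2 -0.51 and 0.34, Pola1 -1.24 and 0.93. It was Prim1 -1.73 and 0.27, Pcna -0.42 and 0.27, Rfc4 -1.19 and 0.099, Fen1 -0.60 and 0.11, Rrm1 -0.66 and 0.26, Tk1 -1.68 and 0.076, Chaf1b -1.19 and 0.058 and Slbp -0.41 and 0.23 for the others. For Rrm2 the value was -0.33 when bone marrow replicate 2 was left out and 0.098 when replicate 1 was. Ccne1 (1.15 to 1.46) and Ccne2 (0.37 to 0.53) kept their sign. So did the brighter Tyms probe set (0.48 to 1.37), but its other probe set has the opposite sign and the mean of both was 0.24. The tissues share only replicate numbers, and the correlation of the gaps between replicates across 12920 genes was 0.106, with genes not independent. With the replicate number as a block the members' median was -0.19, 0 members and 0 other replication genes passed, and the adjusted p of Ccne1 was 0.529. Signal over background limits Tyms most, at intensities of 40.5 to 176.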

Other observations

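Of 31 measured genes of G1/S control outside the list, 0 passed limma's test over all genes, as did 0% of all genes. Against 6.00% of all genes, 0 of the 31 had an unadjusted p below 0.05 by limma. Their median log2 difference was -0.05. E2f6, a repressor of the E2F family, had the lowest p, with intensities of 4756 and 2472 in colonic MSC, against 1944 and 1432 in bone marrow MSC, no overlap and a log2 difference of 1.03 ± 0.39 (SE, adjusted p = 0.837). Cdkn2c, the CDK4 and CDK6 inhibitor p18, was at 1077 and 2844 in colonic MSC, against 2988 and 4345 in bone marrow MSC. E2f2 was dim, at 63.5 and 122 in colonic MSC, against 47.4 and 53.6 in bone marrow MSC.

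The D cyclins did not share the order of the replication genes. Ccnd1 was at 8787 and 11063 in colonic MSC, against 10866 and 8176 in bone marrow MSC. Ccnd2 had 12027 and 11254 in colonic MSC and 11693 and 6303 in bone marrow MSC, and Ccnd3 had 3020 and 1903 in colonic MSC and 2405 and 1063 in bone marrow MSC. For Ccnd2 and Ccnd3 colonic replicate 1 was the highest array. Ccna2, the cyclin of S and G2 phase, was at 1362 and 4893 in colonic MSC, against 3819 and 5043 in bone marrow MSC, low in colonic replicate 1 alone. Genes named in this paragraph were chosen after their values were seen.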
